A study of Mus musculus with 6 samples.

Results

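The genes described here are 10 that mark or drive the passage of cells from an epithelial to a mesenchymal state: the SNAIL factors *Snai1* and *Snai2*, *Twist1*, the homeobox factors *Prrx1* and *Prrx2*, the factors *Zeb1* and *Zeb2*, the cadherins *Cdh2* and *Cdh11*, and the intermediate filament gene *Vim*. They are a fixed list of names, with no measured value in the rule, but chosen with earlier results of these data known. All 10 were found among the 35565 gene identifiers measured and passed the filter on low counts. *Snai1* and *Prrx2* passed it only through the control libraries, so a fall was the only large change they could show. The data are bulk RNA sequencing of mouse gastruloids, aggregates of embryonic stem cells (ESCs) that form a body axis in culture, collected at day 5. Control (NT) gastruloids, grown from non-targeting cells, gave 3 libraries, and so did KD-1 gastruloids, in which the long non-coding RNA *T-UCstem1* is silenced. Both groups come from TBV2 129/SvP ESCs and both received a pulse of the WNT activator CHIR99021. The labels give the control's genotype as WT, whereas the study's text describes non-targeting cells. KD-1 is 1 of the study's knockdown clones, so a difference between the clone and the control cells other than the silencing cannot be told apart from it. *T-UCstem1* RNA was not analysed here.

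Epithelial cells are tied to each other by E-cadherin (*Cdh1*). In the epithelial-mesenchymal transition, which cells of the embryo pass through when they leave the primitive streak or the neural tube, SNAIL and ZEB zinc-finger proteins bind E-box sequences and repress *Cdh1* and other epithelial genes. TWIST1 and PRRX proteins promote a mesenchymal state, N-cadherin (*Cdh2*) often takes the place of E-cadherin, and vimentin (*Vim*) filaments are typical of mesenchymal cells. *Twist1*, *Snai2* and the *Prrx* genes are also known from paraxial and lateral mesoderm, head mesenchyme or neural crest.

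Libraries held 20982249 to 56674906 counts in Control (NT) and 41180012 to 85561026 in KD-1, and each is called the library of lowest, middle or highest depth of its group. The Control (NT) library of middle depth stood apart from the other controls by exon length. Its genes with exons of 108 to 3684 bp in all were higher than in the other controls by a median of 0.13 on the log2 scale, and those with 9086 bp or more differed by -0.14. Among the 10 genes it was the highest control for *Snai1*, *Snai2*, *Twist1*, *Prrx1*, *Prrx2*, *Cdh2* and *Vim* and the lowest for *Zeb1*, *Zeb2* and *Cdh11*. Each fold change was therefore also computed without it, and without each other library. Levels are counts scaled to library size with TMM factors (CPM), ± is the SD with n = 3 libraries per group, and a gene was called when edgeR's quasi-likelihood test gave a Benjamini-Hochberg adjusted p under 0.05 and the fold change exceeded 1.5 in either direction.

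In KD-1 gastruloids the transcription factors other than the ZEB pair fell by 4.02-fold to 72.2-fold, whereas *Zeb1*, *Zeb2*, the cadherins and *Vim* differed by 1.63-fold or less. Of the 10 genes, 7 fell, 0 rose and 3 were not called, and DESeq2 and limma-voom each gave 7 and 0 as well. Without the fold threshold 8 counted as lower and 1, *Vim*, as higher, also at an unadjusted p under 0.05. Among all 15110 genes tested, 37.7% were called in either direction, 18.1% as lower and 19.7% as higher. Their log2 fold changes had a median of -1.35, against -0.01 over all genes tested. An adjusted p under 0.05 was reached by 9 of the 10 genes, against 63.5% of all genes, and the libraries of the groups did not overlap for 9 of the 10 genes, against 70.6% of all genes. The 10 genes were chosen with earlier results of these data known, so these shares are not an independent comparison. They include *Snai1* and *Prrx2*, which passed the filter only through the controls. In bulk samples fewer cells of a type and less RNA per cell cannot be told apart.

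**Figure D1:**
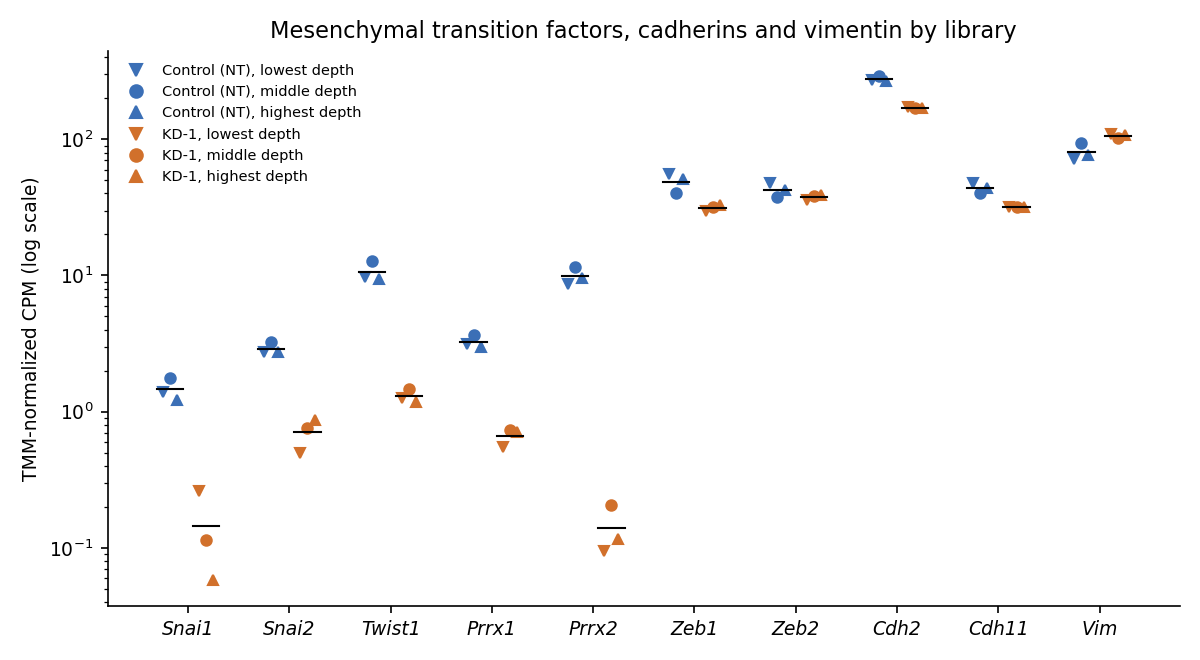
Level of each of the 10 genes in each of the 6 libraries, in CPM on a log axis, with Control (NT) and KD-1 libraries as separate points. The factors other than *Zeb1* and *Zeb2* drop well below the controls in all 3 KD-1 libraries, with *Prrx2* at 0.0954 to 0.207 CPM, while *Zeb2* overlaps and *Vim* is higher.

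*Snai1* (ENSMUSG00000042821), which encodes the SNAIL repressor active in gastrulating mesoderm, lies on the plus strand at chr2:167380113-167384734 (GRCm39). Its level was 1.40, 1.78 and 1.21 CPM in the Control (NT) libraries of lowest, middle and highest depth, and 0.262, 0.115 and 0.0576 CPM in the KD-1 libraries in the same order. Every control library was above every KD-1 library. *Snai1* fell 10.9-fold, from 1.46 ± 0.289 to 0.145 ± 0.106 CPM (log2 fold change -3.44, SE 0.52, adjusted p = 0.00044). The counts behind the KD-1 values were 11, 5 and 5, and without the KD-1 library of lowest depth the log2 fold change was -4.13.

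*Snai2* (ENSMUSG00000022676, chr16:14523425-14527252, plus strand) encodes SLUG, the relative of SNAIL known from neural crest and mesoderm. It stood at 2.75, 3.23 and 2.73 CPM in the controls and at 0.501, 0.759 and 0.864 CPM in KD-1, again without overlap. *Snai2* fell 4.02-fold (log2 fold change -2.01, SE 0.25, adjusted p = 0.00015). The fall of *Snai1* was not shown to be larger than that of *Snai2*. The log2 ratio of *Snai1* to *Snai2* was -0.96, -0.86 and -1.17 in the control libraries and -0.90, -2.61 and -3.78 in the KD-1 libraries, and the groups overlapped (exact permutation test, two-sided p = 0.3, adjusted over the 5 ratios tested 0.3).

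The promoter of *Snai1* carries the letters that SNAIL and ZEB proteins are known to bind. The 250 bases before the start of a gene were available for *Snai1*, *Twist1*, *Prrx1*, *Prrx2*, *Zeb2* and *Vim*, at 9 starts in all (RefSeq, GRCm38.p6), and were searched on both strands for the E2-box (letters CACCTG) and for the wider E-box (letters CANNTG) that includes it. After the sequences were seen, the CCAAT box (those letters) and the TATA motif (letters TATAAA) were added. The promoters of *Snai1* (chr2:167537945-167538194), *Twist1* (chr12:33957421-33957670) and *Prrx2* (chr2:30845117-30845366), the strongest falls, and of *Vim* (chr2:13574061-13574310), the gene with the opposite sign, are shown on the plus strand with the E2-box, the CCAAT box in either orientation and the TATA motif in capitals.
Snai1: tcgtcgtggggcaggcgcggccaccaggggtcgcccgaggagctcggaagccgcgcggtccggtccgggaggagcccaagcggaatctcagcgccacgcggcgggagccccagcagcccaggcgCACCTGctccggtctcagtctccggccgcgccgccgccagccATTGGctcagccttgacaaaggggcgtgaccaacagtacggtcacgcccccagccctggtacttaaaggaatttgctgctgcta
Twist1: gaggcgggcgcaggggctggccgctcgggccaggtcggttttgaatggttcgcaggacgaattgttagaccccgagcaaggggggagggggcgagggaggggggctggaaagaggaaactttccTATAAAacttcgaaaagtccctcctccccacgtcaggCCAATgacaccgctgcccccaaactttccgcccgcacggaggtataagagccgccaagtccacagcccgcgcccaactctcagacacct
Prrx2: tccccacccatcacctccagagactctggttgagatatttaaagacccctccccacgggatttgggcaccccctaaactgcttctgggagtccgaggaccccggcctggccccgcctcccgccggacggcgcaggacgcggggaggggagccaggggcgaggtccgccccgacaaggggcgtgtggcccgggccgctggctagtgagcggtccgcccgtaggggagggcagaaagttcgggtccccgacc
Vim: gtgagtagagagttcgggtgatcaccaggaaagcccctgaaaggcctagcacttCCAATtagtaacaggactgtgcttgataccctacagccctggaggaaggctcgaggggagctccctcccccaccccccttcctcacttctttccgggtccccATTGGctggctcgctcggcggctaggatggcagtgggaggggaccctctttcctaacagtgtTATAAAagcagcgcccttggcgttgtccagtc
*Snai1* held the E2-box 126 bases before its start, and no other E-box of either kind was found at the 9 starts. The E2-box is present on either strand in 17.2% of 32851 mouse promoter windows of this length, and the wider E-box in 66.2%. *Twist1* held a CCAAT box and a TATA motif, *Vim* held the CCAAT box in both orientations and a TATA motif 32 bases before the start, *Snai1* held a CCAAT box on the minus strand 84 bases before the start, *Zeb2* held the CCAAT box in both orientations at 1 of its 4 starts, and *Prrx1* and *Prrx2* held none of the motifs searched. The CCAAT box is present in 33.8% and the TATA motif in 12.4% of the windows. The window of *Prrx2* had a G+C content of 70%, as had that of *Snai1*, against 47.6% for *Prrx1*.

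*Twist1* (ENSMUSG00000035799, chr12:34007645-34009828, plus strand, GRCm39) encodes a basic helix-loop-helix (bHLH) factor of somitic and head mesenchyme. Its level was 9.74, 12.8 and 9.48 CPM in the controls and 1.26, 1.47 and 1.17 CPM in KD-1. The groups were far apart, and the KD-1 libraries lay close together. *Twist1* fell 8.26-fold (log2 fold change -3.05, SE 0.18, adjusted p = 1.7e-06), and over all alternatives tried the log2 fold change stayed between -3.13 and -2.90.

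*Prrx2* (ENSMUSG00000039476, chr2:30724984-30774419, plus strand) and *Prrx1* (ENSMUSG00000026586, chr1:163041844-163142033, minus strand) encode paired-related homeobox factors of limb, facial and lateral mesenchyme. *Prrx2* stood at 8.63, 11.5 and 9.55 CPM in the controls and at 0.0954, 0.207 and 0.115 CPM in KD-1, where the counts were 4, 9 and 10. It fell 72.2-fold (95% interval 48.5 to 107, log2 fold change -6.17, SE 0.25, adjusted p = 2.4e-07), the largest change of the 10 genes and number 115 of the 15110 genes tested by size.

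*Prrx1* stood at 3.13, 3.64 and 2.96 CPM in the controls and at 0.549, 0.736 and 0.714 CPM in KD-1. It fell 4.82-fold (log2 fold change -2.27, SE 0.22, adjusted p = 3.1e-05), on chromosome 1, where the median over tested genes was 0.49. By CPM the order of the pair turned over: *Prrx1* had 0.31 to 0.36 times the CPM of *Prrx2* in the controls and 3.42 to 5.95 times in KD-1. This ratio, of values not scaled by length, differed 14.3-fold without overlap (exact permutation test, two-sided p = 0.1, the smallest that 3 against 3 libraries allow, adjusted p = 0.125).

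The genes next to *Prrx2* were lower as well. *Ntmt1*, an N-terminal methyltransferase gene that ends 470 bp before *Prrx2*, fell from 20.5 to 9.63 CPM (log2 fold change -1.10, adjusted p = 7e-05), and *Ptges*, a prostaglandin E synthase gene 5064 bp beyond it, fell from 9.31 to 0.438 CPM (log2 fold change -4.40, adjusted p = 1.2e-07). Of the 20 nearest tested protein-coding neighbours of the 10 genes, these were the only 2 called lower. Another 5 were called higher, namely *Trdmt1* and *St8sia6* beside *Vim*, *Clxn* beside *Snai2*, *Hdac9* beside *Twist1* and *Gorab* beside *Prrx1*. The other 13 were not called. Some of these had an adjusted p under 0.05 but a change under the fold threshold. *Rnf114* and *Ube2v1* beside *Snai1* and *Got2* and *Tk2* beside *Cdh11* were lower in this way. *Abcc1* beside *Snai2*, *Polr1f* beside *Twist1*, *Arhgap12* beside *Zeb1* and *Acvr2a* beside *Zeb2* were higher. The 7 called of 20 compare with 37.7% of all genes.

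*Zeb1* (ENSMUSG00000024238, chr18:5591851-5775467, plus strand) and *Zeb2* (ENSMUSG00000026872, chr2:44873644-45007464, minus strand) encode zinc-finger homeobox repressors of *Cdh1*. *Zeb1* stood at 55.3, 40.3 and 51.3 CPM in the controls and at 29.5, 32.0 and 32.8 CPM in KD-1. Every control was higher, and the control of middle depth was the nearest to KD-1. *Zeb1* fell 1.55-fold (log2 fold change -0.63, SE 0.11, adjusted p = 0.0012), just past the fold threshold. The log2 fold change was -0.55 without the control library of lowest depth, -0.58 without the KD-1 library of lowest depth and -0.58 with scaling by library size alone, and in none of these was *Zeb1* called. A pseudogene on the opposite strand within *Zeb1*, *Gm16147*, had at most 8 counts in any library.

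*Zeb2* stood at 47.7, 37.7 and 42.3 CPM in the controls and at 35.9, 38.5 and 39.0 CPM in KD-1, and the groups overlapped. Its log2 fold change was -0.17 (SE 0.09, 95% interval -0.37 to 0.04, adjusted p = 0.14), an interval whose lower bound is well above the log2 fold changes of *Snai1*, *Twist1* and the *Prrx* genes. The log2 ratio of *Zeb1* to *Zeb2* went from 0.20 ± 0.09 to -0.27 ± 0.02 without overlap (exact permutation test, two-sided p = 0.1, the smallest possible, adjusted p = 0.125).

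**Figure D2:**
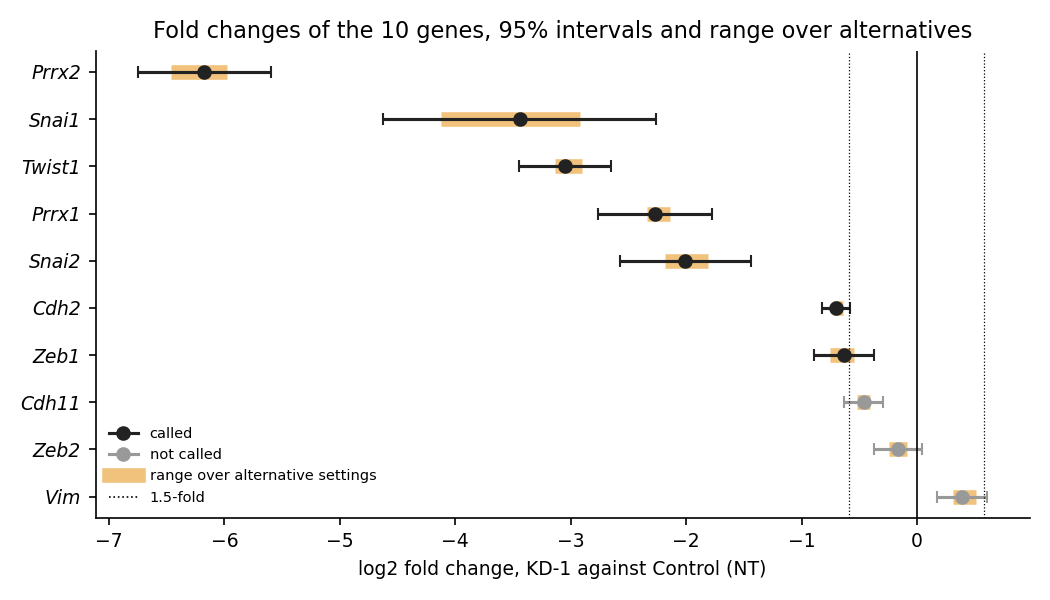
Log2 fold change of KD-1 against Control (NT) for each of the 10 genes, with 95% intervals as bars, the range over the alternatives as shading and dotted lines at a 1.5-fold change. *Prrx2* is the farthest at -6.17, *Zeb1* and *Cdh2* lie just past the line, and *Cdh11*, *Zeb2* and *Vim* are not called.

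Levels of different genes were compared as TPM, counts divided by the total exon length of each gene and scaled to a common sum. The 7 transcription factors together summed to 48.0 ± 1.81 TPM in the controls and to 17.2 ± 1.11 TPM in KD-1. *Zeb1* and *Zeb2* together gave 18.2, 13.3 and 17.1 TPM in the controls and 12.2, 13.6 and 13.5 TPM in KD-1, with overlap, while the other 5 factors gave 31.8 ± 4.31 and 4.13 ± 0.432 TPM. The ZEB pair thus held 33.9% ± 6.41 of the factors' TPM in the controls and 76.0% ± 1.52 in KD-1. With the longest transcript as length, a choice added after seeing the data, these shares were 53.9% and 88.0%.

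By total exon length *Twist1* stood at 19.1 ± 2.89 TPM in the controls and *Zeb1* at 10.7 ± 1.87 TPM. By longest transcript, also added after seeing the data, *Zeb1* was the higher, at 19.4 ± 3.47 against 14.8 ± 2.19 TPM. *Prrx2* at 5.72 ± 0.740 and *Zeb2* at 5.56 ± 0.713 TPM did not differ beyond their spread, whereas by longest transcript they stood at 4.91 ± 0.604 and 10.7 ± 1.45 TPM. *Snai2* and *Snai1* stood at 3.71 ± 0.278 and 2.66 ± 0.456 TPM, and *Prrx1* was the lowest at 0.581 ± 0.0485 TPM. In KD-1 the ZEB genes came first among the factors, *Zeb1* at 7.61 ± 0.50 and *Zeb2* at 5.49 ± 0.308 TPM, followed by *Twist1* at 2.60 ± 0.352 and *Snai2* at 1.01 ± 0.272 TPM. *Snai1* at 0.293 ± 0.210 and *Prrx1* at 0.133 ± 0.0223 TPM were within their spread of each other there, and *Prrx2* was the lowest at 0.0902 ± 0.0404 TPM.

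*Cdh2* (ENSMUSG00000024304, chr18:16700793-16942381, minus strand), N-cadherin, stood at 274.6, 291.8 and 267.6 CPM in the controls and at 173.0, 170.4 and 169.8 CPM in KD-1. The libraries of each group lay close together and the groups were well apart. *Cdh2* fell 1.63-fold (log2 fold change -0.70, SE 0.05, adjusted p = 1e-05). It remained an abundant transcript in KD-1, at 65.1 ± 1.06 TPM against 95.1 ± 1.95 TPM in the controls.

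*Cdh11* (ENSMUSG00000031673, chr8:103358726-103512687, minus strand), the mesenchymal OB-cadherin, stood at 47.5, 40.1 and 43.8 CPM in the controls and at 31.9, 31.8 and 31.6 CPM in KD-1. Every control library was above every KD-1 library. Its log2 fold change of -0.46 (SE 0.08, adjusted p = 0.00072) was under the fold threshold, so *Cdh11* was not called. The log2 ratio of *Cdh2* to *Cdh11* was 2.67 ± 0.17 in the controls and 2.43 ± 0.01 in KD-1 (exact permutation test, two-sided p = 0.1, adjusted p = 0.125).

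E-cadherin went the other way. *Cdh1* rose from 35.6 ± 2.71 to 123 ± 2.20 CPM (log2 fold change 1.79, SE 0.07, adjusted p = 1.6e-07). The CPM of *Cdh2* was 8.20, 7.55 and 7.71 times that of *Cdh1* in the control libraries and 1.41, 1.41 and 1.36 times in KD-1, ratios of values not scaled by length that differed 5.61-fold without overlap (exact permutation test, two-sided p = 0.1, the smallest possible, adjusted p = 0.125).

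**Figure D3:**
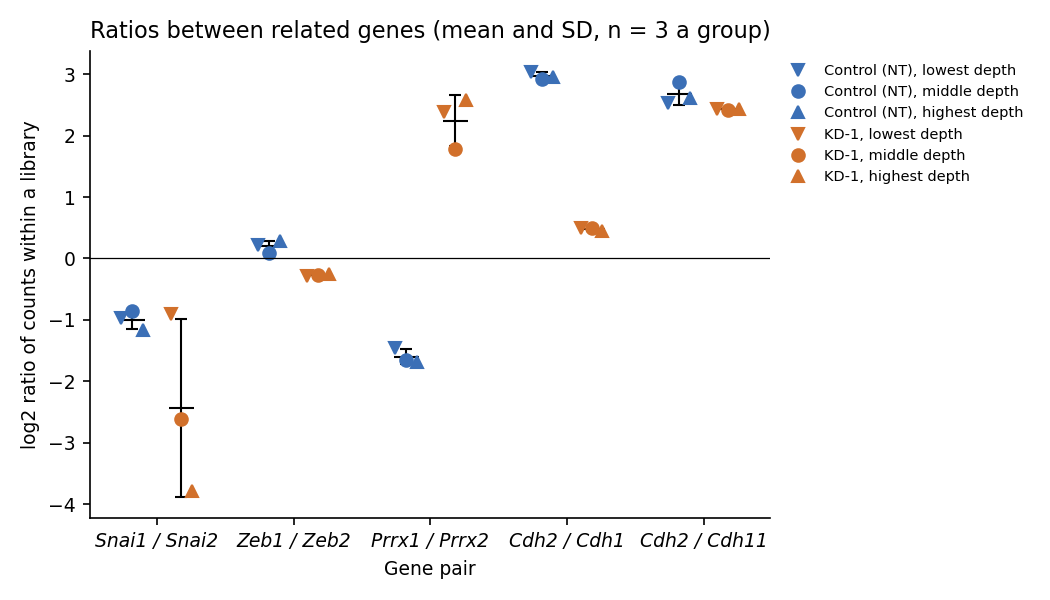
Log2 ratio of CPM for 5 gene pairs in each library (points) with the mean and SD of each group, n = 3. *Cdh2* to *Cdh1* drops from 2.97 to 0.48 and *Prrx1* to *Prrx2* climbs from -1.60 to 2.24, while for *Snai1* to *Snai2* the groups overlap.

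Across 19 cadherin genes per exon length, *Cdh2* made up 63.4%, 64.3% and 62.5% of the summed TPM in the controls and 34.9%, 34.9% and 34.0% in KD-1, a difference of -28.8 percentage points. *Cdh1* made up 15.2% ± 0.748 in the controls and 46.4% ± 0.353 in KD-1, where it was above *Cdh2*. That order in KD-1 depended on the length used. By longest transcript *Cdh1* made up 35.0% and *Cdh2* 44.2% in KD-1, and with no length correction 31.8% and 44.2%, with *Cdh2* above *Cdh1* in every library. The share of *Cdh11* was 7.47% ± 0.804 in the controls and 4.79% ± 0.0711 in KD-1. By total exon length the summed cadherin TPM was higher in KD-1, at 188 ± 2.03 against 149.98 ± 1.79 in the controls. This direction also depended on the length used, and in CPM, with no length correction, the total was not higher. There *Cdh2* went from 278 to 171 CPM and *Cdh11* from 43.8 to 31.8 CPM. The 17 other cadherins summed to 81.4 to 82.7 CPM in the controls and 180 to 188 CPM in KD-1.

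**Figure D4:**
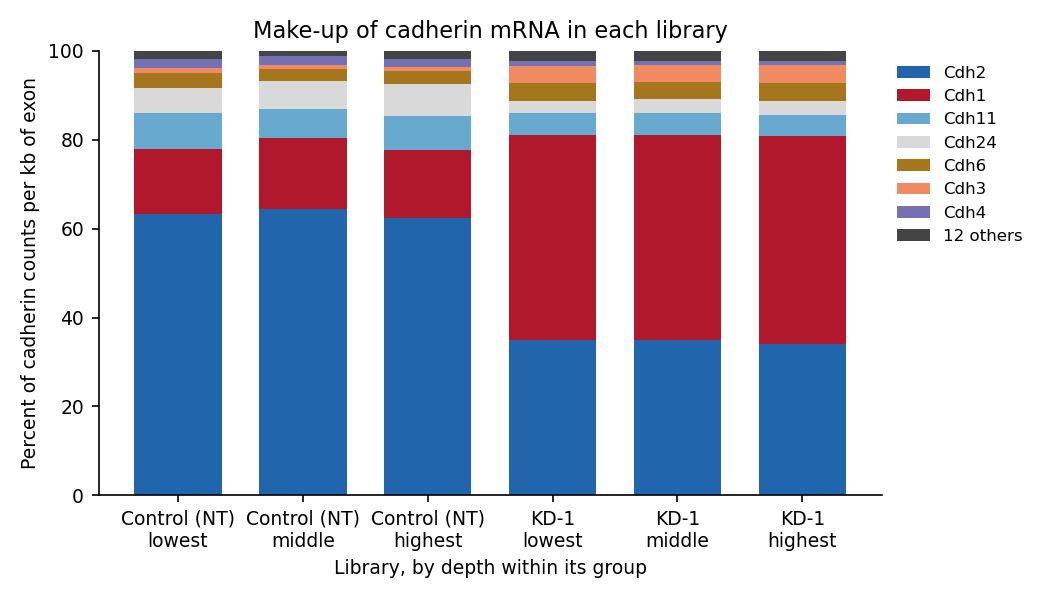
Share of each cadherin in the summed TPM of 19 cadherin genes, in percent, as stacked bars from 0 for each of the 6 libraries. *Cdh2* leads in the 3 Control (NT) libraries at 62.5% to 64.3%, and *Cdh1* is above it in the 3 KD-1 libraries at 46.2% to 46.8%, an order that turns by longest transcript or with no length correction.

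*Vim* (ENSMUSG00000026728, chr2:13578738-13587639, plus strand), vimentin, was the member with the opposite sign. It stood at 72.2, 94.1 and 76.3 CPM in the controls and at 109.5, 101.9 and 106.8 CPM in KD-1. Every KD-1 library was above every control, with the control of middle depth the nearest. The log2 fold change of 0.39 (SE 0.10, 95% interval 0.17 to 0.61, adjusted p = 0.0067) was under the fold threshold, so *Vim* was not called, and over all alternatives it lay between 0.32 and 0.51. Per length *Vim* ranked second of the 10 genes in the controls at 50.4 ± 6.27 TPM, behind *Cdh2*, and first in KD-1 at 73.6 ± 1.30 TPM, and it had the same ranks by longest transcript.

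The relatives and partners of these genes were read from fixed lists, 94 genes in all, of which 80 could be tested. Of these, 26 rose, 18 fell and 36 were not called, 55% called against 37.7% of all genes (19.7% higher and 18.1% lower). Their median log2 fold change was 0.17. The lists were chosen with earlier results of these data known, so the shares are not an independent comparison.

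The relatives of SNAIL moved opposite to *Snai1* and *Snai2*, at low levels. All 3 rose: *Scrt2* and *Scrt1*, neuronal zinc-finger repressors, by 4.28 and 1.53 on the log2 scale, and *Snai3* by 1.38 (adjusted p = 0.049), from 0.199 ± 0.113 to 0.470 ± 0.0619 CPM. *Snai3* lost its call with DESeq2 (adjusted p = 0.085), with upper-quartile normalization (0.051), with no filter on low counts (0.087) and without each of 4 libraries in turn, its log2 fold change being 0.84 without the deepest control. *Scrt1* lost its call without each of 3 libraries, with a log2 fold change of 1.13 without the deepest control, and that of *Scrt2* was 5.37 without the same library.

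Of the bHLH relatives and E-protein partners of TWIST1, 6 of 10 could be tested. *Scx*, a tendon and sclerotome factor, fell by 4.29 on the log2 scale, *Tcf15*, a paraxial mesoderm factor, fell by 3.26 and the E-protein gene *Tcf3* fell by 1.17, while *Msc* on chromosome 1 rose by 1.38. *Scx* had 6, 2 and 3 counts in KD-1, and its log2 fold change was -5.03 without the KD-1 library of lowest depth. *Msc* lost its call without the deepest control (1.16) or without either of the deeper KD-1 libraries. *Twist2* was at 2, 6 and 11 counts in the controls and 1, 5 and 10 in KD-1, too low to be tested. Of 3 tested homeobox genes related to *Prrx*, *Alx4* fell by 1.83 and *Shox2* rose by 1.16. Without the deepest KD-1 library neither was called, at -1.40 and 1.02, and *Shox2* was not called without the KD-1 library of lowest depth either (1.17).

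Genes of the epithelial side rose with *Cdh1*. Of 10 tested, with *Cdh1* counted among them, 8 rose and 2 were not called. Their median log2 fold change was 1.75, and 19.7% of all genes rose. With 1 library left out, 6 to 8 of the 10 rose. *Grhl2*, a grainyhead factor of epithelia, rose from 2.41 to 31.6 CPM (log2 fold change 3.74, adjusted p = 4.6e-08). *Esrp1*, an epithelial splicing regulator, rose from 5.83 to 50.5 CPM (3.12, adjusted p = 2.2e-08), and *Grhl1* rose from 1.13 to 4.70 CPM (2.06, adjusted p = 2.4e-05).

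Among 12 tested cadherins other than *Cdh2* and *Cdh11*, a list that also holds *Cdh1*, 7 rose and 3 fell, against 19.7% and 18.1% of all genes. The largest rises were those of *Cdh20* (log2 fold change 2.93), *Cdh7* (2.54) and *Cdh13* (2.47), all under 6 CPM in every library, and *Cdh20* and *Cdh7* lie on chromosome 1. The falls were those of *Cdh18* (-4.81), *Cdh24* (-0.91) and *Cdh4* (-0.79). Catenins link cadherins to the cytoskeleton. Of 8 tested genes of the catenin list, which also holds the vinculin gene, only *Ctnna2* was called, with a rise of 1.12. *Ctnnb1* (β-catenin) stood at 958 ± 40.4 CPM in the controls and 753 ± 14.5 CPM in KD-1 (-0.35, adjusted p = 0.00066, not called).

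Intermediate filament genes other than *Vim* moved both ways. The neurofilament genes *Nefm*, *Ina* and *Nefh* rose by 4.83, 3.96 and 2.72 on the log2 scale, while *Nefl* fell by 1.84 and the muscle gene *Des*, on chromosome 1, fell by 2.12. *Nefl* and *Nefm* are neighbours whose annotated spans overlap on opposite strands. *Nes*, the neural progenitor filament often paired with vimentin, stood at 115 ± 4.58 CPM in the controls and 84.7 ± 4.12 CPM in KD-1 (-0.44, adjusted p = 0.00028, not called).

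Cofactors of SNAIL and ZEB and the genes of their turnover were mostly not called. Of 11 tested, only *Ctbp1*, a corepressor gene, was called, with a fall of 0.85 on the log2 scale. Of 10 tested genes that mesenchymal cells are known to express, 4 fell and 3 rose, against 18.1% and 19.7% of all genes. *Acta2*, smooth muscle actin, fell by 5.18, *Tnc*, tenascin C, fell by 4.90 and *Loxl2*, a collagen-linking enzyme, fell by 1.91, while *Cd44* rose by 2.60, *Mmp2* rose by 0.98 and *Fn1*, fibronectin on chromosome 1, rose by 0.73 from 332 ± 40.8 to 552 ± 7.01 CPM. *Acta2* had 1, 0 and 6 counts in KD-1, and its log2 fold change was -6.64 without the deepest KD-1 library. Of 10 genes of the TGF-β signal that induces the transition, 4 fell and 6 were not called, where 37.7% of all genes tested were called. The falls were those of *Tgfb3* (-3.28), *Tgfb2* (-1.03, chromosome 1), *Smad3* (-0.77) and *Tgfbr2* (-0.74).

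**Figure D5:**
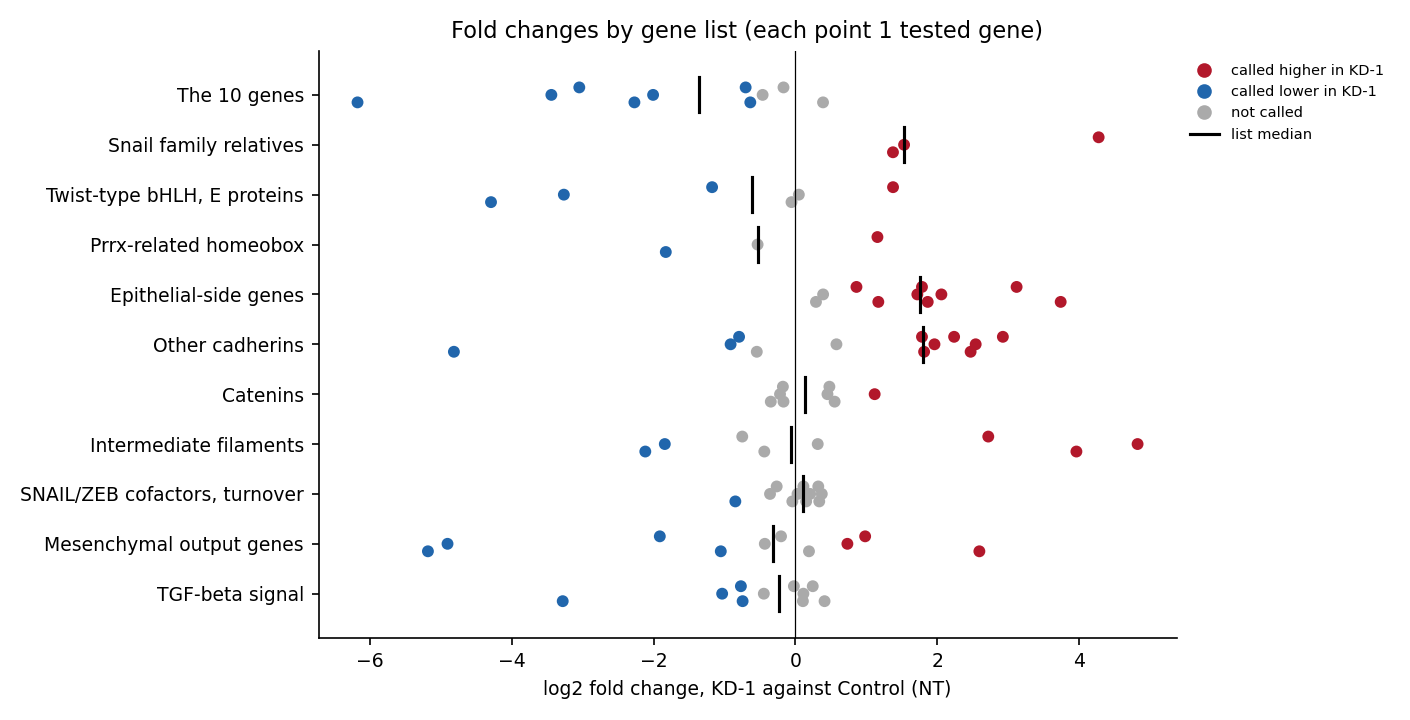
Log2 fold change of every tested gene, by list, with called genes in colour and the list median as a bar. The 10 genes have a median of -1.35, the epithelial-side genes 1.75, with *Cdh1* in that list and in that of other cadherins, and the cofactors of SNAIL and ZEB 0.11.

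Markers of cell types moved with these genes, and their part in the result was not tested. Over all genes tested, 19.7% were called higher and 18.1% lower. The 5 tested presomitic and somite markers, of which *Tcf15* is also in the TWIST1 list, all fell, with a summed level of 476 to 537 CPM in the controls and 45.1 to 45.5 CPM in KD-1. The 5 pluripotency markers all rose, from 622 to 751 CPM up to 2083 to 2154 CPM, and 4 of 5 neural tube markers rose, from 34.8 to 38.9 CPM up to 149 to 151 CPM. The fibroblast and feeder list had 4 of 5 tested markers lower, at 34.0 to 38.8 CPM in the controls and 0.864 to 1.05 CPM in KD-1. Most of the control sum was *Fap*, at 27.9 CPM in the controls and 0.0389 CPM in KD-1. *Thy1*, at 0.132 and 0.451 CPM, was not called. The cardiac list stood at 3.09 to 4.11 CPM in the controls and 0.242 to 0.414 CPM in KD-1. Most of the control sum was *Tnnt2*, its single tested gene, which fell from 3.50 to 0.120 CPM. *Myl7* had 2, 2 and 1 counts in the controls and 7, 7 and 10 in KD-1. *Hand2* had 4, 6 and 4 and then 2, 5 and 2, and *Nkx2-5* had 1, 0 and 3 and then 0 in every library. The neural crest list stood at 109 to 117 and 27.6 to 29.5 CPM, although 3 of its 4 tested genes rose and only *Ets1* fell. *Sox10*, which defines neural crest, had 0 counts in every control library and 3, 3 and 6 in KD-1. The endothelial list stood at 16.8 to 18.0 and 33.0 to 35.2 CPM (2 rose, 1 fell), the endoderm list at 13.5 to 14.6 and 33.7 to 35.8 CPM (1 rose) and the posterior gastruloid list at 31.4 to 40.6 and 17.0 to 19.1 CPM (2 of 4 fell). *Pecam1* made up most of the endothelial sum, at 14.5 and 29.4 CPM, while *Kdr* fell. *Cdh5*, not tested, had 7, 8 and 21 counts in the controls and 1, 1 and 2 in KD-1. *Cxcr4*, at 13.7 and 34.3 CPM, made up most of the endoderm sum. The other endoderm genes were too low to be tested. *Sox17* had 4, 9 and 9 counts in the controls and 0, 0 and 1 in KD-1. *Foxa2* had 2, 1 and 1 and then 6, 5 and 9. Exon length also moved with the comparison: genes with 108 to 3684 bp of exon had a median of -0.18 on the log2 scale, and those with 9086 bp or more had 0.09. Its part in the fold changes of the members was not tested. *Snai1*, *Snai2* and *Twist1* are short genes, and *Zeb1*, *Zeb2*, *Cdh11* and *Prrx1* are long. *Prrx1*, with 16550 bp of exon, fell 4.82-fold, and *Prrx2*, with the largest fall, has 5117 bp.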

How the data were processed

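RNA of day 5 gastruloids was sequenced, 3 libraries per group, which the series describes as biological replicates. Nothing in the labels says that they came from separate cultures, so p-values measure the spread between these libraries. The authors deposited an estimated count per gene (expected counts from Salmon, rounded to whole numbers, not normalized). Salmon 1.1 and bcl2fastq are named in the submitters' processing notes, and the reads were quantified on a Gencode gene model, whose build, and any use of strand, is not given in the sources used here. Reads of near-identical or overlapping genes are shared out by probability, so such genes are uncertain.

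Gene positions and exon lengths came from GENCODE vM39 (GRCm39), which holds 35222 of the 35565 identifiers, and promoter sequences from RefSeq (GRCm38.p6). Counts were tested with edgeR 4.0.16 in R 4.3.3 (filterByExpr, TMM, robust glmQLFit and glmQLFTest, group as the only term), with Benjamini-Hochberg adjustment over 15110 genes. The biological coefficient of variation was 10.6%. A count of 0 allows up to 0.145 CPM in the shallowest library and 0.0345 CPM in the deepest, at a limit of 3 counts that covers counting error only. Libraries of the same group all differed by more than sampling noise (chi-square per degree of freedom 4.85 to 36.5). Ratios used CPM from counts with 0.5 added. Tests were tried on simulated counts of KD-1 against Control (NT), where 200 genes differed by 1.5 on the log2 scale: edgeR called 171 of them and 3 unchanged genes of 14941 in all, DESeq2 177 and 9 of 15110, and limma-voom 172 and 4 of 14941. In the data 37.7% of genes were called. The simulated counts also held no shift of chromosome 1 and no trend with exon length, so errors from these were not measured.

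The members, lists and tests were chosen with earlier results of these data known. The text names all members, every called gene of a list with at most 6 called, otherwise its 3 largest rises and falls, *Cdh1*, *Ctnnb1*, *Nes*, *Fn1*, *Snai3*, *Twist2*, and the nearest tested neighbours. *Arvcf* of the catenin list was not matched. *Gm16147*, *Sox10*, *Ets1*, *Pecam1*, *Kdr*, *Cdh5*, *Cxcr4*, *Sox17*, *Foxa2*, *Fap* and *Thy1* were named after their values were seen. Alternatives were DESeq2 1.42.0, limma-voom (limma 3.58.1), other normalizations, filters and fold thresholds, and each library left out in turn.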

Additional observations from a re-analysis of the deposited data

How the results depend on the processing

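The count of members called was 7, and 5 to 9 over the alternatives: 5 at an absolute log2 fold change over 1, 9 with no fold threshold, 6 by library size alone or in a test against a 1.5-fold change, 5 of 8 testable members with at least 10 counts in every library (*Snai1* and *Prrx2* could not be tested), and 6 to 7 with 1 library left out. *Zeb1* lost its call by library size alone (log2 fold change -0.58) and in 2 of the 6 fits with 1 library left out, which ranged from -0.76 to -0.55. At the same thresholds the other 9 members kept their call and direction wherever they were tested. *Zeb2* ranged from -0.24 to -0.08, with adjusted p from 0.0059 to 0.40. By longest transcript the shares of *Cdh1* and *Cdh2* in cadherin TPM differed by 25.1 and -26.1 percentage points, and with no length correction by 22.9 and -24.6, and under both *Cdh2* stayed above *Cdh1* in KD-1. The share of the ZEB pair differed by 42.1 points, and by 34.1 points by longest transcript. Calls over the companion lists numbered 44, and 33 to 47 over the alternatives. With at least 10 counts in every library, calls went from 3 to 0 among SNAIL relatives, from 2 to 1 among *Prrx* relatives and from 7 to 4 among mesenchymal genes, with fewer genes tested. With 1 library left out the first went down to 1 and the second to 0, and the catenins went from 1 to 2, as they did with DESeq2, by library size alone and with the filter of 10 counts or TMM without chromosomes 1, X and Y. No paired analysis was possible because the number suffixes of the columns do not correspond to the replicate numbers of the labels. Low counts limit *Snai1*, *Prrx2*, *Scx* and *Acta2*, whose KD-1 counts were near or under 10 in the libraries of every depth.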
